A study of Mus musculus with 7 samples.

Results

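The genes described here are the core of the Notch pathway in sorted cells of the embryonic mouse brain: the 4 receptors Notch1, Notch2, Notch3 and Notch4, the ligands Dll1, Dll4, Jag1 and Jag2, the DNA-binding effector Rbpj and the receptor-modifying glycosyltransferase Lfng. They were picked by symbol, as 10 of the 23358 gene rows in the authors' deposited table, and each symbol matched 1 row. The cells carried the Ai14 allele, which makes the red protein TdTomato once a recombinase has acted, and came from C57Bl6 embryos at E14.5. The study set 2 groups side by side: 4 libraries labelled as lacking Tgfbr2, the type II receptor for transforming growth factor β, called Tgfbr2-deficient here, and 3 control libraries. Each library was made from 2000 to 5000 TdTomato-positive cells, which the labels name as endothelial. The labels name neither the recombinase nor its promoter, and say no more of the controls' genotype.

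Notch signalling passes between touching cells. A ligand of the Delta-like or Jagged type on one cell binds a Notch receptor on its neighbour, the receptor is cut by an ADAM protease and then by γ-secretase, and the freed intracellular domain joins RBPJ on DNA to turn on genes such as those of the HES and HEY families. Fringe enzymes, among them LFNG, add sugars to the receptor that favour Delta-like over Jagged ligands. In growing vessels the pathway limits the number of sprouting tip cells and sets arterial fate, in mural cells NOTCH3 supports smooth muscle, and in the embryonic brain DLL1 and NOTCH1 keep neural progenitors from differentiating too early.

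Expression is given as FPKM, the number of fragments scaled for transcript length and for the mapped fragments of the library, which lets levels of different genes be compared. The deposited table holds 1 FPKM value per gene and group, so no spread between libraries could be computed, the depth of the libraries is unknown, and the q-value of the authors' Cuffdiff test is the error measure for each gene. Nothing in the labels says that each library is a separate embryo, and the spread behind a q-value may therefore be technical. A gene was called higher or lower at a deposited q under 0.05, with test status OK and at least 1 FPKM in at least 1 group, and 13356 genes could be called in this way. The targeted gene, Tgfbr2, had 65.4 FPKM in the Tgfbr2-deficient group and 91.1 FPKM in the control group (log2 fold −0.48, q = 0.0953 in the authors' deposited table), which did not pass the threshold. The labels do not name the deleted exons, so this value for the whole gene does not check the deletion. The labelled cell type was checked on 18 pan-endothelial markers, which summed to 498 FPKM in the Tgfbr2-deficient group and 91.2 FPKM in controls, or 433 and 43.5 FPKM without Egfl7, a marker singled out after its values were seen that had 64.7 and 47.7 FPKM in the same groups and did not pass. The 20 microglia and macrophage markers summed to 6468 and 13616 FPKM in the same groups. Macrophage transcripts therefore stood above endothelial ones in both groups, and most in the controls.

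The Notch genes that changed did not all go one way. All 4 ligands and the receptors Notch3 and Notch4 were higher in the Tgfbr2-deficient group, Rbpj and Lfng were lower, and Notch1 and Notch2 did not pass the threshold. All 10 genes passed the FPKM minimum, 10 of them in the Tgfbr2-deficient group and 8 in the control group, where Notch4 and Dll4 were under 1 FPKM. The 6 higher members stand beside 23.9% of all tested genes called higher, and the 2 lower members beside 14.7% of all tested genes called lower. The median log2 fold with 1 FPKM added to each value was 1.61 over the 10 genes and −0.08 over all tested genes. In RNA from sorted pools, fewer cells of a type and less RNA per cell cannot be told apart, and a level here is a share of all RNA in the pool.

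**Figure D1:**
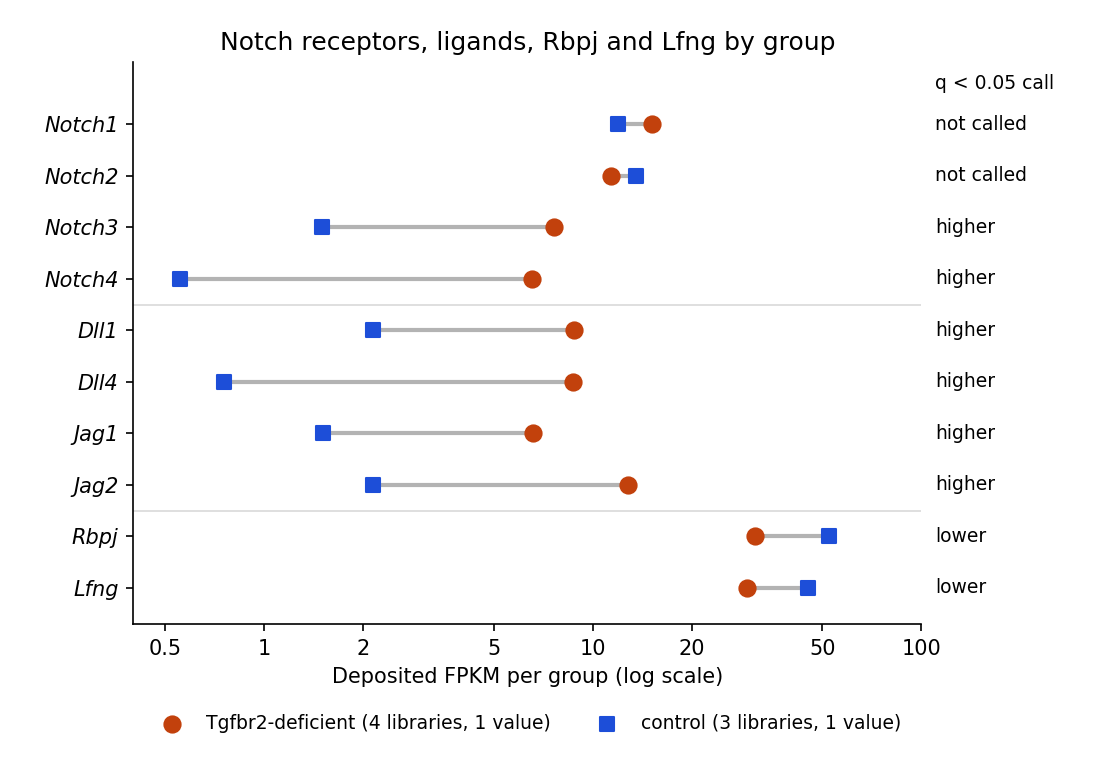
Deposited FPKM of each Notch gene on a log axis, with the Tgfbr2-deficient group as circles and the control group as squares, 1 value per group and no error bars because the table holds none per library. The 6 genes called higher lie between 0.556 and 2.15 FPKM in controls and between 6.53 and 12.8 FPKM in the Tgfbr2-deficient group, whereas Rbpj and Lfng are the most abundant genes in both groups.

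Among the receptors, Notch4 differed most. Notch4, a receptor found mainly on endothelium, had 6.53 FPKM in the Tgfbr2-deficient group and 0.556 FPKM in controls, an 11.7-fold difference (log2 fold 3.55, q = 0.00029 in the authors' deposited table). It was the least abundant of the 10 genes in both groups, and 2.01% of tested genes had a larger log2 fold. Its locus lies on chromosome 17 from 34564295 to 34588543 (mm10), on the plus strand.

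Notch3, the receptor of pericytes and smooth muscle, had 7.63 FPKM in the Tgfbr2-deficient group and 1.51 FPKM in controls, a 5.07-fold difference (log2 fold 2.34, q = 0.00029 in the authors' deposited table). It lies on the same chromosome from 32120893 to 32166852 on the minus strand. Of its annotated exon bases, 6.03% also belong to the antisense gene Gm17276, whose reads these unstranded libraries cannot separate. In the expression bin of Notch3, the fourth of 10 bins of near equal size over tested genes ordered by mean FPKM, 31.7% of genes were called higher, and in that of Notch4 37.3%.

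Notch1 and Notch2 were the abundant receptors in both groups, and neither passed. Notch1, which is expressed in endothelium and in neural progenitors, had 15.2 FPKM in the Tgfbr2-deficient group and 11.9 FPKM in controls (log2 fold 0.35, q = 0.199 in the authors' deposited table). Notch2, a receptor also active in myeloid cells, had 11.4 FPKM in the Tgfbr2-deficient group and 13.5 FPKM in controls (log2 fold −0.25, q = 0.367 in the authors' deposited table), and the sign of this small difference turned when folds were centred on ribosomal protein genes, which adds 0.54 to every log2 fold. A q-value over the threshold does not show that these receptors were equal in the groups. Notch1 lies on chromosome 2 from 26457902 to 26503822 on the minus strand, with 7.50% of its annotated exon bases shared with the antisense transcript 0610009E02Rik and 2.91% with another, Gm13568. Notch2 lies on chromosome 3 from 98013538 to 98150367 on the plus strand, with 5.02% of its exon bases shared with Gm42820.

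The make-up of the receptors therefore differed. The 4 receptors summed to 40.8 FPKM in the Tgfbr2-deficient group and 27.5 FPKM in controls. Notch3 and Notch4 together held 34.8% of this sum in the Tgfbr2-deficient group and 7.50% in controls, and Notch1 and Notch2 together held 65.2% and 92.5% in the same groups. The sum of Notch1 and Notch2 was 26.6 FPKM in the Tgfbr2-deficient group and 25.4 FPKM in controls, so most of the difference in the receptor sum lay in Notch3 and Notch4. These shares are descriptions of 1 value per group and carry no test.

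All 4 ligands were low in controls and higher in the Tgfbr2-deficient group. Dll4, the Delta-like ligand of arterial and sprouting endothelium, had 8.71 FPKM in the Tgfbr2-deficient group and 0.754 FPKM in controls, an 11.6-fold difference (log2 fold 3.53, q = 0.00029 in the authors' deposited table), and 2.05% of tested genes had a larger log2 fold. Its deposited locus on chromosome 2, from 119321199 to 119335666, begins before the annotated gene, at 119325784 on the plus strand, and takes in the antisense gene Gm14207, which shares 5.56% of Dll4's exon bases. Gm14207 itself had 0.404 FPKM in the Tgfbr2-deficient group and 0.0268 FPKM in controls, far under the values of Dll4.

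Jag2, a Jagged ligand known for its roles in limb and craniofacial development, was the most abundant ligand of the Tgfbr2-deficient group, with 12.8 FPKM there and 2.15 FPKM in controls, a 5.94-fold difference. Its log2 fold was 2.57, with q = 0.00029 in the authors' deposited table, and its locus is on chromosome 12 from 112908590 to 112929495 on the minus strand. Jag1, the Jagged ligand of endothelium and smooth muscle, had 6.57 FPKM in the Tgfbr2-deficient group and 1.51 FPKM in controls, a 4.34-fold difference. Its log2 fold was 2.12 with the same q in the authors' deposited table, and it lies on chromosome 2 from 137081451 to 137116520 on the minus strand. Neither Jagged gene shares annotated exon bases with another gene.

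Dll1, the Delta-like ligand of differentiating neural progenitors, had 8.78 FPKM in the Tgfbr2-deficient group and 2.15 FPKM in controls, a 4.09-fold difference (log2 fold 2.03, q = 0.00029 in the authors' deposited table). It lies on chromosome 17 from 15367354 to 15375823 on the minus strand, where 20.5% of its annotated exon bases are shared with the antisense lincRNA A930024N18Rik, whose reads these libraries cannot tell apart from its own. The level of A930024N18Rik was not analysed here. Dll1 and Jag2 were nearly level in controls, at 2.15 FPKM each, while in the Tgfbr2-deficient group Jag2 stood above Dll1.

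The ligands summed to 36.9 FPKM in the Tgfbr2-deficient group and 6.57 FPKM in controls. Set against the summed receptors, this was 90.5 FPKM of ligand per 100 FPKM of receptor in the Tgfbr2-deficient group and 23.9 in controls. Within the ligands, Dll4 held 23.6% in the Tgfbr2-deficient group and 11.5% in controls, Dll1 held 23.8% and 32.7%, Jag1 17.8% and 23.0%, and Jag2 34.7% and 32.8% in the same groups. The Delta-like pair as a whole held 47.5% in the Tgfbr2-deficient group and 44.2% in controls. Dll4 and Dll1 thus stood at almost the same level in the Tgfbr2-deficient group, whereas in controls Dll4 was the least abundant ligand. With 1 FPKM added to each value, the share of Dll4 in controls becomes 16.6%, since all 4 ligands were near 1 or 2 FPKM there.

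**Figure D2:**
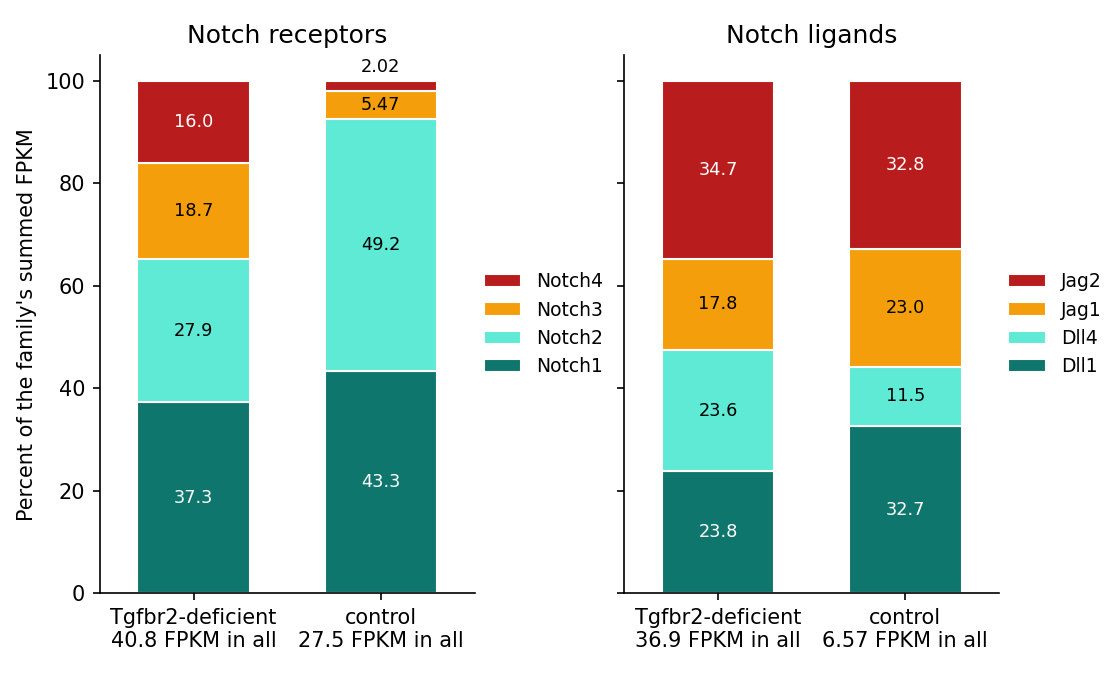
Percent of the summed FPKM held by each of the 4 Notch receptors (left) and of the 4 ligands (right), with the Tgfbr2-deficient bar left of the control bar in each panel and the sum under each bar. Notch3 and Notch4 hold 18.7% and 16.0% of receptor FPKM in the Tgfbr2-deficient group and 5.47% and 2.02% in controls, and Dll4 is the ligand whose share is larger in the Tgfbr2-deficient group by the widest margin.

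Rbpj and Lfng were the most abundant of the 10 genes and went the other way. Rbpj, which encodes the transcription factor that all 4 receptors act through, fell to 31.2 FPKM in the Tgfbr2-deficient group, against 52.5 FPKM in controls (log2 fold −0.75, q = 0.0034 in the authors' deposited table). Lfng, the lunatic fringe enzyme, fell to 29.4 FPKM in the Tgfbr2-deficient group, against 45.1 FPKM in controls (log2 fold −0.62, q = 0.0133 in the authors' deposited table). Both falls were smaller than 2-fold, and 8.58% of tested genes had a smaller log2 fold than Rbpj and 13.6% than Lfng. In the expression bin that holds both, the ninth of 10, 33.8% of genes were called lower and 5.77% higher. Centring on ribosomal protein genes shrank both differences, to log2 folds on FPKM + 1 of −0.19 for Rbpj and −0.06 for Lfng. These centred values carry no error measure, and that of Lfng is almost no difference. At q under 0.01 Rbpj passed and Lfng did not. Rbpj stood at 76.6 FPKM per 100 FPKM of summed receptors in the Tgfbr2-deficient group and at 191 in controls.

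Rbpj lies on chromosome 5 from 53555779 to 53657445 and Lfng on the same chromosome from 140607341 to 140615545, both on the plus strand. RefSeq lists 3 Rbpj pseudogenes, and the counting of reads shared with such copies is unknown, which makes the level of Rbpj uncertain. The 3 fringe genes summed to 77.4 FPKM in the Tgfbr2-deficient group and 99.9 FPKM in controls, of which Lfng held 38.0% and 45.1%, Mfng 32.9% and 24.2%, and Rfng 29.1% and 30.7% in the same groups.

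The promoters of the 10 genes were read from RefSeq (GRCm38.p6, the same assembly as mm10) as the 250 bases before each transcript start, 12 windows in all, and searched on both strands for TGGGAA, the core that RBPJ binds, whose other strand reads TTCCCA. The core contains GGAA, the core of ETS factor sites, so a match can be either. Of the 10 genes, 2 held it, Rbpj and Lfng, and the other 8 did not, which is near the share over all genes. Of all 32851 RefSeq windows of this length 21.6% held it, and of all genes 24.1%. With 10 genes this is a description of these windows, and a match is no evidence of binding. In Lfng the matches began 135 and 108 bases before the start, and in Rbpj 149 and 65 bases before the first of its 2 listed starts. Both Rbpj starts lie inside its deposited locus, which begins at 53555779, and no window was read at starts further upstream. The windows are shown for both genes and, with no match, for the receptor and the ligand that differed most, all on the plus strand and read 5′ to 3′ with matches in capitals: Lfng at chr5:140607091-140607340, Rbpj at chr5:53590096-53590345, Notch4 at chr17:34564045-34564294 and Dll4 at chr2:119325534-119325783.
Lfng: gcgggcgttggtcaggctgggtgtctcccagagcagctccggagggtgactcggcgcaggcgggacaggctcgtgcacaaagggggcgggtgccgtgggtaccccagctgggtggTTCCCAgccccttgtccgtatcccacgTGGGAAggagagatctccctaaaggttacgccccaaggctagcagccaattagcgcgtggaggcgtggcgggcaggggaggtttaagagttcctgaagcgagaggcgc
Rbpj: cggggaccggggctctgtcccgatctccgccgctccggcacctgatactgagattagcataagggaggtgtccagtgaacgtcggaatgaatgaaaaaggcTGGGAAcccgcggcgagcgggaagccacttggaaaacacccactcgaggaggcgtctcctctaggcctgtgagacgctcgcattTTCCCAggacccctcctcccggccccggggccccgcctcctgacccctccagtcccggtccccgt
Notch4: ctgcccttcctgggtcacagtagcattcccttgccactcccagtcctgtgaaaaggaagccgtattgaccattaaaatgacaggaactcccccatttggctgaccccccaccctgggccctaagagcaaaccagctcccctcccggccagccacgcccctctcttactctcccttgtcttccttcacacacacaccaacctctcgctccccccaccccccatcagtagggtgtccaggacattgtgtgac
Dll4: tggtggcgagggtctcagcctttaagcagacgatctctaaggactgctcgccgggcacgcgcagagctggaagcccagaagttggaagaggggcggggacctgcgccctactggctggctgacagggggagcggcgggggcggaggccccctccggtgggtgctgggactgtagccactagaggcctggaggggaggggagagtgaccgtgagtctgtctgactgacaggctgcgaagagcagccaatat

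The GC content of the windows of the 10 genes ran between 56.0% and 87.2%, against a median of 52.4% over all windows. The highest was that of Jag2, while the printed windows of Notch4 and Dll4 had 58.4% and 65.6%.

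**Figure D3:**
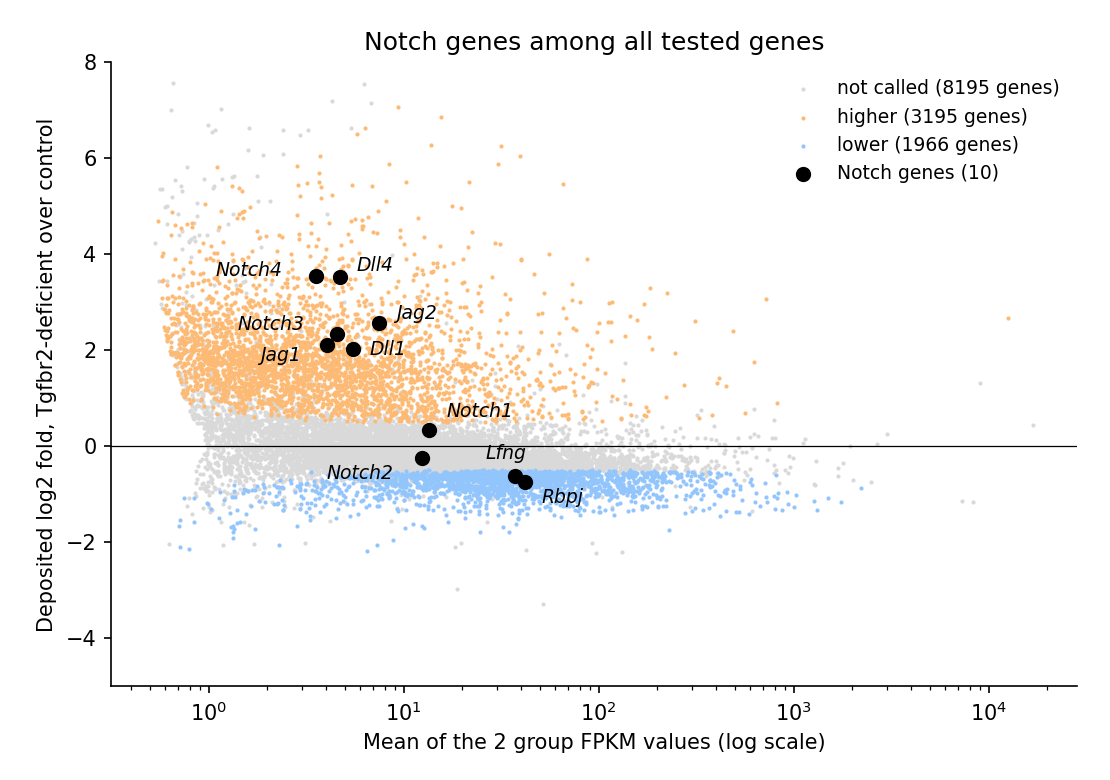
Deposited log2 fold of the Tgfbr2-deficient over the control group against the mean of both group FPKM values (log axis) for all tested genes, coloured by call, with the 10 Notch genes in black. The 6 higher Notch genes lie at lower mean FPKM than Rbpj and Lfng; the share of genes called higher was 31.7% or 37.3% in the bins of 5 of them and 22.2% in that of Jag2, and 41 genes beyond the axis range or listed at 0 in a group are not drawn.

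The other genes of the pathway were read as 50 genes in 6 lists, of which 49 could be called: 14 were higher, 6 were lower and 29 did not pass, with a median log2 fold on FPKM + 1 of 0.05. These counts stand near the 23.9% higher and 14.7% lower of all tested genes. Of the 14 that rose, 3 were ligands and 6 were targets. Of the other ligands and ligand-like genes, 3 of 4 rose. Dlk1, a non-canonical ligand-like protein and an imprinted gene, had 89.7 FPKM in the Tgfbr2-deficient group and 13.1 FPKM in controls. Dner, a neuronal member, had 21.7 and 7.22 FPKM, and Dll3, which acts inside the cell as an inhibitor, had 8.80 and 4.01 FPKM in the same groups. Dlk2, at 1.68 FPKM in the Tgfbr2-deficient group and 0.688 FPKM in controls, did not pass. The largest q of the 3 that rose was 0.0021, for Dll3, in the authors' deposited table.

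All 6 listed Notch targets rose, beside 23.9% of all tested genes called higher. Their median log2 fold was 1.79 on FPKM + 1 and 2.46 with 0.1 FPKM added. It depends on the amount added because the targets were low in controls, between 0.345 and 3.83 FPKM. Hes1, a repressor that Notch induces in many tissues, had 21.5 FPKM in the Tgfbr2-deficient group and 2.59 FPKM in controls, and Nrarp, a feedback inhibitor of the pathway, had 17.3 and 2.31 FPKM in the same groups. Heyl, a HEY factor of mural cells, had 4.45 FPKM in the Tgfbr2-deficient group and 0.604 FPKM in controls, and Hey1, an arterial factor, had 8.77 and 1.79 FPKM. Each had q = 0.00029 in the authors' deposited table.

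The enzymes that process ligand and receptor were read as 1 list. Of 13 ubiquitin ligases and proteases that could be called, 1 was higher, 5 were lower and 7 did not pass. These counts stand beside 23.9% higher and 14.7% lower over all tested genes. The median log2 fold of the list on FPKM + 1 was −0.21, or 0.33 when centred on ribosomal protein genes. Neurl1a, a ligase that drives ligand endocytosis, fell to 6.99 FPKM in the Tgfbr2-deficient group, against 16.0 FPKM in controls. Aph1a, a subunit of γ-secretase, fell to 30.7 FPKM in the Tgfbr2-deficient group, against 44.6 FPKM in controls (q = 0.0432 in the authors' deposited table). Adam17, a sheddase, fell to 36.1 FPKM, against 53.9 FPKM in controls, while Adam10, the main protease for ligand-bound Notch, had 47.5 FPKM in the Tgfbr2-deficient group and 45.5 FPKM in controls and did not pass. Aph1b was higher, at 3.14 FPKM in the Tgfbr2-deficient group and 1.64 FPKM in controls, and its near-identical copy Aph1c lower, at 1.40 and 2.42 FPKM in the same groups. Reads of these paralogs may be split between them, so both values are uncertain. Centring on ribosomal protein genes, which adds 0.54, would turn the sign for Aph1a and Aph1c, whose log2 folds on FPKM + 1 were −0.53 and −0.51. On the same scale Neurl1a was at −1.09 and would stay lower, while Adam17, at −0.56, would be lower only barely.

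Neither the other sugar-adding enzymes nor the nuclear partners of RBPJ held a called gene. Of 5 glycosyltransferases 0 passed, and the most abundant were Rfng, at 22.5 FPKM in the Tgfbr2-deficient group and 30.7 FPKM in controls, and Mfng, at 25.4 and 24.2 FPKM in the same groups. Of 11 co-activators and co-repressors 0 passed. Ctbp1, a co-repressor, had 131 FPKM in the Tgfbr2-deficient group and 153 FPKM in controls, and Snw1, an RBPJ-binding adaptor, had 35.7 and 44.3 FPKM. At an unadjusted p under 0.05 in the authors' deposited table, 2 of the glycosyltransferases and 0 of the nuclear partners passed.

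Of 10 endocytic and degradative regulators, 4 rose, 1 fell and 5 did not pass, beside 23.9% higher and 14.7% lower over all tested genes. Nedd4, a ubiquitin ligase with many substrates, had 94.0 FPKM in the Tgfbr2-deficient group and 21.8 FPKM in controls, and Dtx1, a Deltex protein, had 9.19 and 3.17 FPKM in the same groups. Dtx3 had 54.2 FPKM in the Tgfbr2-deficient group and 27.2 FPKM in controls, and Numbl, a relative of the Notch inhibitor Numb, had 16.4 and 8.36 FPKM. Dtx2 fell to 13.8 FPKM in the Tgfbr2-deficient group, against 21.4 FPKM in controls. Dtx2 had the highest q of these 5 genes in the authors' deposited table, 0.0165.

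Markers of several cell types moved with the Notch genes, and their part in these results was not tested. Of the 18 pan-endothelial markers 17 were higher and 0 lower, beside 23.9% higher and 14.7% lower over all tested genes. No marker of any cell type list was at 0 in either group. Eng and Cldn5, the most abundant of those called in controls, had 32.8 and 74.9 FPKM in Tgfbr2-deficient cells, against 11.1 and 5.02 FPKM in control cells. The median deposited log2 fold of the list was 3.75, with 10 of 18 markers above the log2 fold of Notch4 and the same number above that of Dll4, and 16 above that of Notch3, Dll1, Jag1 and Jag2 alike. Of 8 arterial markers that could be called 7 were higher and 1 was lower, with a median deposited log2 fold of 2.53, and 1 of 8 lay above Notch4 and 1 above Dll4. Nrp1, a VEGF and semaphorin co-receptor, was the lower one, at 49.7 FPKM in Tgfbr2-deficient cells and 87.1 FPKM in control cells, and Efnb2, an arterial ephrin, had 19.4 and 3.68 FPKM in the same groups.

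Microglia and macrophage markers went the way of Rbpj and Lfng. Of 20 such markers 17 were lower and 0 higher, beside 14.7% lower and 23.9% higher over all tested genes. Which cells the Rbpj and Lfng transcripts came from was not tested. C1qb, a complement subunit, had 1083 FPKM in the Tgfbr2-deficient group and 2432 FPKM in controls, and C1qc had 959 and 2026 FPKM in the same groups. The median deposited log2 fold of these markers was −1.08, below the −0.75 of Rbpj and the −0.62 of Lfng, and 4 of 20 markers lay above Rbpj and 3 above Lfng.

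Mural and neural markers were higher, as were most markers of every list but the macrophage one, beside 23.9% of all tested genes. The log2 fold of Notch3 minus the list median was −0.08 for erythroid markers and −0.99 for pericyte and smooth muscle markers. For Dll1 it was −0.39 for erythroid markers and 0.48 for neural progenitor markers. Which cells the Notch3 and Dll1 transcripts came from was not tested. Of 13 pericyte and smooth muscle markers that could be called 10 were higher and 0 lower, with a median deposited log2 fold of 3.33 and a summed level of 166 FPKM in the Tgfbr2-deficient group and 24.6 FPKM in controls, and 9 of 13 lay above Notch3. Myl9, a smooth muscle myosin light chain, had 45.0 FPKM in Tgfbr2-deficient cells and 4.46 FPKM in control cells, and Vtn, which brain pericytes express, had 27.2 and 3.90 FPKM. All 13 neural progenitor markers were higher, with a median of 1.55 and a summed level of 201 FPKM in the Tgfbr2-deficient group and 68.2 FPKM in controls, and 3 of 13 lay above Dll1. Fabp7, a lipid carrier of radial glia, had 74.8 FPKM in Tgfbr2-deficient cells and 25.5 FPKM in control cells. All 14 neuron markers, 14 fibroblast and meningeal markers, 8 erythroid markers and 8 mast cell, megakaryocyte and platelet markers that could be called were higher too, with median deposited log2 folds of 1.60, 2.94, 2.43 and 5.70.

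**Figure D4:**
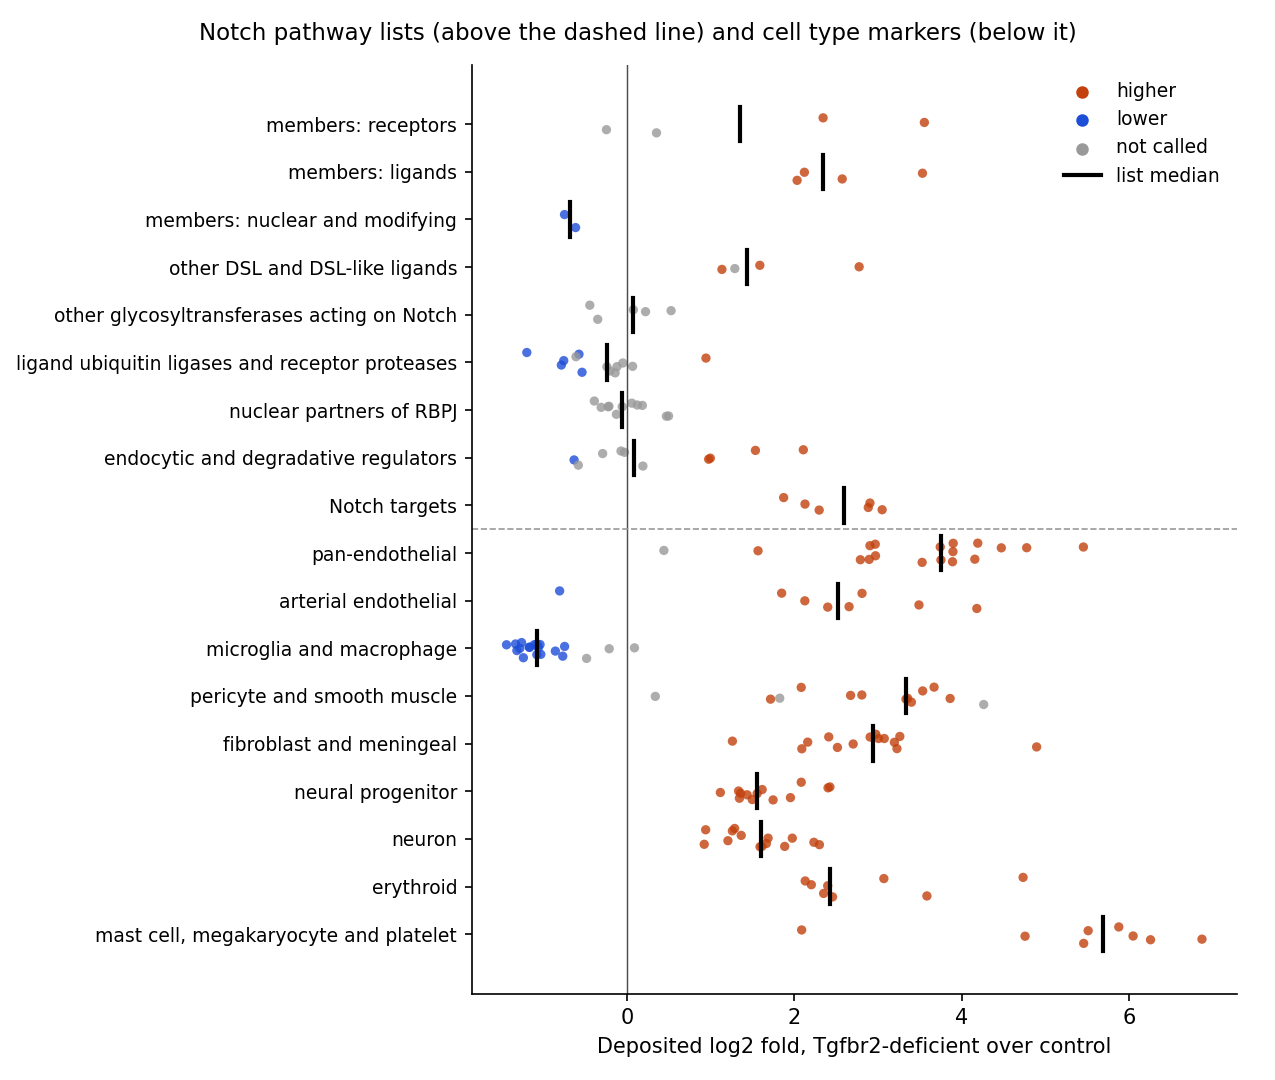
Deposited log2 fold of the Tgfbr2-deficient over the control group for each gene that could be called (points, coloured by call) in the Notch lists above the dashed line and the cell type marker lists below it, with list medians as black bars and points spread vertically only for legibility. Ligands and targets lie to the right of 0, as do most markers of every cell type list but the macrophage one. Rbpj and Lfng lie to the left with most macrophage markers, and the nuclear partners and glycosyltransferases lie around 0.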

How the data were processed

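RNA from sorted brain cells was measured in 7 libraries, made per the labels with the SMART-Seq v4 kit and Nextera XT, neither of which marks the strand, and read as single ends of 50 bases. The submitters' processing notes name mm10 as the build, and TopHat2, Cuffdiff and Cufflinks 2.2.1 as tools. Annotation, library scaling and test settings: not given in the sources used here. Per the file headers, the deposited table gives FPKM as 1 value per group, a log2 fold without pseudocount, a test statistic (a score, not used here), and the p-value and q-value of the authors' Cuffdiff test. The 6 higher members are tied at the smallest deposited p-value, 5e-05, with 2357 genes in all at that value. Values per library were not analysed here, so depth is unknown and no interval or leave-one-out value could be set.

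Rows were matched by symbol, or by a synonym in a RefSeq table of GRCm38.p6. Locus starts count from 0 in the table and are printed from 1. Overlaps come from GENCODE M21 exons. Folds on FPKM + 1 are log2 with a pseudocount of 1 FPKM. Computations used python 3.11.15, numpy 2.4.6 and pandas 2.3.3, with figures by matplotlib 3.10.9. The members, lists and tests were chosen with earlier results of these data known. Besides the members and Tgfbr2, the genes named are, in each other Notch list, the 4 called genes with the largest log2 folds, or the 2 most abundant where none was called, and in each cell type list the 2 called genes with the highest control FPKM, of which Lhx2 and those of the fibroblast, neuron, erythroid and mast cell lists are not printed. Aph1a, Adam17, Dtx2, Dlk2 and Adam10 were named after their values were seen. The count and motif steps were tested on simulated data. Protein sequences were not used here, and 1 gene that the rule for named genes picks is not reported here.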

Additional observations from a re-analysis of the deposited data

How the results depend on the processing

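The 6 members called higher were the same genes with no FPKM minimum, with a minimum of 5 FPKM and at q under 0.01. They were also the same with a log2 fold of at least 1 in size and with q recomputed over the genes counted. None of these settings could have dropped them, so their sameness is no test of robustness. Each had q = 0.00029 in the authors' deposited table, tied at the smallest p-value, and a log2 fold of 2.03 or more. A gene passes the minimum on its larger group value, here 6.53 FPKM or more, although control levels reached only 2.15 FPKM. The 2 members called lower became 1 at q under 0.01 and 0 at a log2 fold of at least 1. Over all tested genes the count higher became 1643 at a minimum of 5 FPKM, against 3195, and the count lower became 1026 at q under 0.01 and 368 at a log2 fold of at least 1, against 1966. Leaving out the members that share exon bases with another gene, a choice made after seeing the data, leaves 3 higher, by its construction, and 2 lower, with a median log2 fold of 1.59. The members' median log2 fold was 2.02 with 0.1 FPKM added, 1.69 centred on all tested genes and 2.15 centred on ribosomal protein genes. Centring on ribosomal protein genes turned the sign for Notch2, to 0.31, for Tgfbr2, to 0.0685, for the ligases and proteases, to 0.33, and for the nuclear partners of RBPJ, to 0.49, which also became 0.0337 when centred on all tested genes. Notch2 and Tgfbr2 had not passed the threshold, and the cause was not tested.

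No paired analysis was possible because the deposited table combines the libraries of each group, and leaving out each library in turn was not run for the same reason. Depth is unknown, so no interval stands beside the control levels of Notch4 and Dll4, which were under 1 FPKM.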

Other observations

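Levels of some members were also read per level of a marker, with pairs chosen after the values were seen and with no test. Notch4 stood at 34.4% of the FPKM of Cdh5, the cadherin of endothelial junctions, in the Tgfbr2-deficient group and at 20.2% in controls, and Dll4 at 45.9% and 27.4% in the same groups. Against Pecam1, another endothelial adhesion molecule, Notch4 stood at 18.3% in the Tgfbr2-deficient group and 11.6% in controls, and Dll4 at 24.3% and 15.7%. Of the 18 pan-endothelial markers, 10 had a larger log2 fold than Notch4 and 10 than Dll4, and Cdh5 and Pecam1 were not among these. Against each of those 10 markers, both genes stand at a lower share in the Tgfbr2-deficient group than in controls. Notch3 stood at 45.6% of Pdgfrb, the receptor of pericytes for platelet-derived growth factor, in the Tgfbr2-deficient group and at 57.2% in controls, and at 95.1% of Rgs5, another pericyte gene, in the Tgfbr2-deficient group and at 198% in controls. Dll1 stood at 51.0% of Neurog2, a proneural factor, in the Tgfbr2-deficient group and at 52.8% in controls. Lfng stood at 5.95% of Csf1r, the growth factor receptor of macrophages, in the Tgfbr2-deficient group and at 3.62% in controls, and Rbpj at 6.31% and 4.21%.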
